A study of Leptinotarsa decemlineata with 6 samples.

Results

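The sequences described here are 8 genes of the Colorado potato beetle (CPB, Leptinotarsa decemlineata) that the study's table of odorant receptors (ORs) names LdecOR11, LdecOR16, LdecOR46 (with 2 sequences), LdecOR48, LdecOR55, LdecOR57 and LdecOR62. They were chosen by their level, a mean of at least 1 TPM (a relative transcript level, corrected for transcript length and library depth) in the antibiotic or the non-treatment group. They are 8 of 236706 deposited genes. The OR table uses 68 names, some for several sequences, and 17 of its sequences reached that level, the 8 listed here and 9 others. The level is therefore given below as a description, with no test. LdecOR62 alone entered through the non-treatment group only, and the other 7 had a mean of at least 1 TPM in both groups. At the edge of the rule, LdecOR48 lay just inside with 1.15 TPM in the antibiotic group and 1.02 TPM in the non-treatment group. LdecOR78 (TRINITY_DN66115_c10_g1) lay just outside with 0.856 TPM in the antibiotic group and 0.762 TPM in the non-treatment group.

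The libraries were 3 of the antibiotic group and 3 of the non-treatment group, all from adult beetles collected in the wild and labelled as WT. In the methods, antibiotic beetles ate potato leaves soaked in a mixture of 5 antibiotics (tetracycline, penicillin, ofloxacin, ciprofloxacin and ampicillin) with Tween-20 over 3 days, and control beetles were given sterile water and leaves soaked in Tween-20 alone. Elsewhere the study describes its non-treatment beetles as given fresh leaves only, so Tween-20 may also differ between the groups. The sources used here do not give the antibiotic concentration behind the transcriptome libraries, the number of heads in each or the beetles' age. The labels call the material head and its cell type a head olfactory cell, whereas the methods speak of whole heads, and nothing says that replicates came from separate beetles, so p-values measure only the spread between these libraries.

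An insect OR is a membrane protein of olfactory neurons that binds an odorant and forms a ligand-gated cation channel together with a shared coreceptor, Orco. Each olfactory neuron usually expresses few ORs besides Orco, so ORs are scarce in RNA from a whole head and more abundant in the antenna. An OR name given by sequence similarity is a name for a best match, and a listed sequence can carry another protein's annotation.

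The annotations deposited with the genes divided the 8 sequences. A match to an OR of the cabbage beetle Colaphellus bowringi was recorded for 5: LdecOR11, LdecOR16, LdecOR46 (TRINITY_DN55561_c5_g1), LdecOR48 and LdecOR57. LdecOR55 matched ATP-binding cassette sub-family G member 1 of Tribolium castaneum. ABCG1 exports cholesterol and phospholipids from cells in mammals. The other LdecOR46 sequence, TRINITY_DN65492_c1_g2, matched the reverse transcriptase of the jockey mobile element, a retrotransposon known from Drosophila. LdecOR62 carried no annotation. The OR names of these 3 sequences are therefore not borne out by the deposited annotation, and they are called listed sequences below rather than receptors. Over the whole OR table an OR annotation was recorded for 70 sequences, another protein for 8 and none for 47. Among the 17 sequences at 1 TPM or more, these numbers were 10, 5 and 2.

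Before the results, the libraries as a whole need a description. The count totals were 31928906 and 33613953 in the antibiotic libraries with counts and between 25397497 and 31185289 in the non-treatment libraries. Spearman correlations over the 33919 tested genes were 0.814 to 0.869 within groups and 0.5998 to 0.721 between them, so the groups stood apart. Markers of head tissues did not match the head label evenly. An opsin-annotated gene (TRINITY_DN52274_c7_g1) had 161, 212 and 138 TPM in the antibiotic libraries, against 0.592, 0.639 and 0.252 TPM in the non-treatment libraries. The LdecOrco sequence of the table (TRINITY_DN60091_c1_g1) had 0.175, 0.109 and 0.950 TPM in the antibiotic libraries and was listed at 0 in all 3 non-treatment libraries, also in counts. A protamine-annotated gene (TRINITY_DN62402_c0_g1), a marker of sperm, was listed at 0 in all 3 antibiotic libraries, against 516, 408 and 81.8 TPM in libraries of the non-treatment group. An axonemal dynein heavy chain match (TRINITY_DN58913_c2_g2), from the same list of sperm and testis genes, had the opposite order, with 279, 288 and 417 TPM in the antibiotic libraries, against 82.9, 76.5 and 82.8 TPM in the non-treatment libraries. At the threshold given below, 10.1% of all 33919 tested genes passed, 976 higher and 2464 lower. Summed over whole marker lists, antenna genes reached 3686 to 5865 TPM in antibiotic libraries and 1731 to 3604 TPM in non-treatment libraries (8 of 39 tested were higher and 0 lower). Of these 39, 36 were odorant-binding proteins. Eye genes reached 457 to 627 TPM in antibiotic and 131 to 147 TPM in non-treatment libraries (7 higher and 1 lower of 21), and muscle genes 22054 to 23885 TPM in antibiotic and 6189 to 10036 TPM in non-treatment libraries (15 higher and 6 lower of 53). The sums of these 3 lists were thus higher in antibiotic libraries, with no overlap. Brain and synapse genes summed to 300.3 to 408.6 TPM in antibiotic and 396 to 458 TPM in non-treatment libraries (1 higher and 2 lower of 13). Gut genes summed to 4977 to 9339 TPM in antibiotic and 7739 to 25185 TPM in non-treatment libraries (3 higher and 35 lower of 101), and sperm and testis genes to 412 to 568 TPM in antibiotic and 378 to 1143 TPM in non-treatment libraries (3 higher and 16 lower of 28). Marker levels of several tissues moved with the groups, and their part in the values below was not tested. The opsin, the other named eye gene and LdecOrco were at or near 0 in the non-treatment libraries, so these genes did not bear out their head label. The antenna, eye and brain lists had some TPM there, however, and LdecOrco was low in the antibiotic libraries too. These lists were made by annotation keyword, so their sums need not show the tissue they are named for. The most abundant gene of the brain list, for example, was a synaptotagmin-15 match (TRINITY_DN62800_c1_g1). Its mean was 95.7 TPM in the antibiotic group and 189 TPM in the non-treatment group. OR-annotated sequences of the table summed to 42.3 ± 1.96 TPM in the antibiotic group and 58.4 ± 21.5 TPM in the non-treatment group. The markers thus do not settle the tissue. Whether the material was the same in both groups is therefore uncertain, and a difference in material and one in feeding cannot be told apart in any comparison below. In bulk RNA, fewer cells of a type and less RNA per cell cannot be told apart.

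The 8 sequences held 48.3% to 67.9% of the TPM of the OR table in single libraries, and LdecOR55 was the largest part. Their sum was 64.4% ± 3.67 of the summed TPM of the table in the antibiotic group and 52.3% ± 3.60 in the non-treatment group (SD, n = 3 each). LdecOR55 alone, the ABCG sequence, made up 44.5% ± 3.85 in the antibiotic group and 28.5% ± 5.04 in the non-treatment group. The 5 with an OR annotation together made up 17.7% ± 1.51 in the antibiotic group and 18.7% ± 0.692 in the non-treatment group. LdecOR16 alone made up 12.3% ± 1.88 in the antibiotic group and 12.3% ± 3.02 in the non-treatment group. These shares depend on whether sequences that match another protein are counted in the table. With such matches left out, the 5 made up 37.4% ± 4.202 in the antibiotic group and 30.4% ± 2.62 in the non-treatment group, and the 6 listed sequences that remained, LdecOR62 included, 38.1% ± 3.89 in the antibiotic group and 33.3% ± 2.47 in the non-treatment group. The whole table summed to 100.8 ± 9.48 TPM in the antibiotic group and 112.6 ± 30.9 TPM in the non-treatment group, and its sequences that are not listed to 35.6 ± 1.06 TPM in the antibiotic group and 54.4 ± 19.2 TPM in the non-treatment group.

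**Figure D1:**
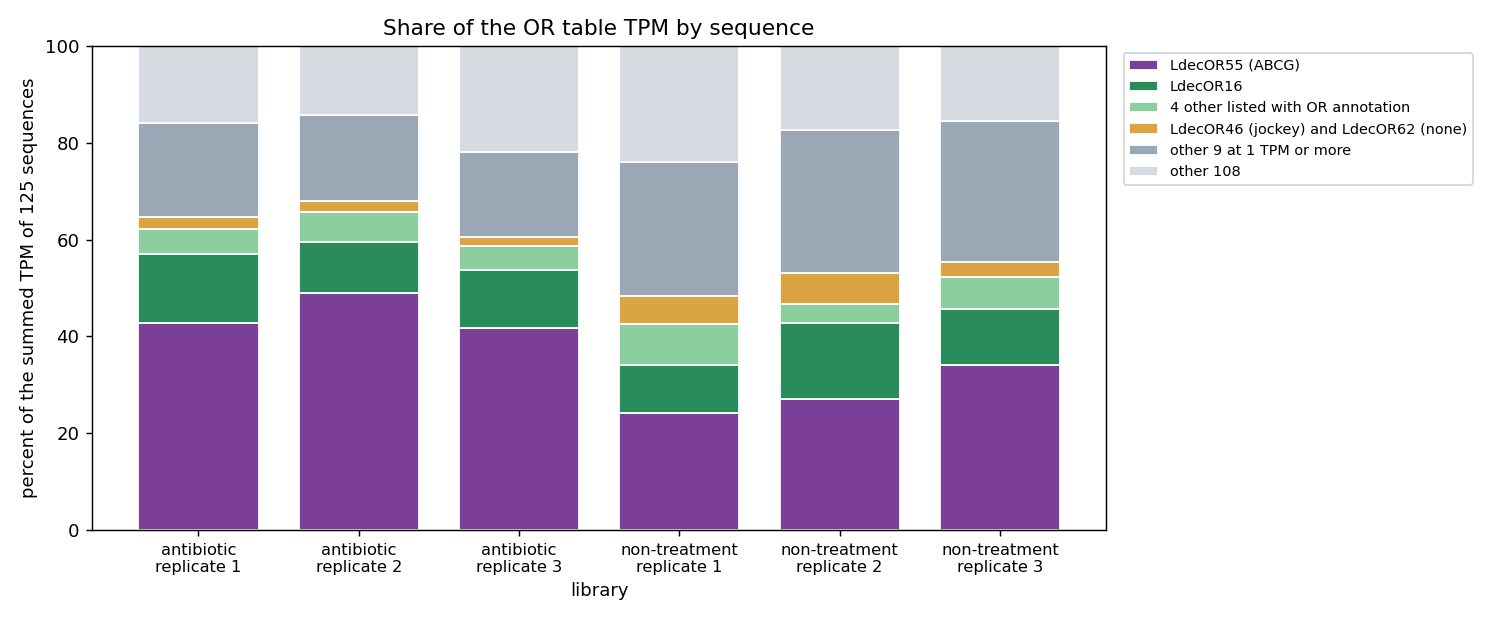
Percent of the summed TPM of all OR table sequences (y axis) in each of 6 libraries (x axis), stacked by sequence or group of sequences, with the 3 antibiotic libraries on the left. The segment of LdecOR55 spans 41.8% to 48.9% in antibiotic libraries and 24.2% to 34.1% in non-treatment libraries, and that of LdecOR16 lies between 9.76% and 15.6% in all 6.

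In both groups the order of levels began with LdecOR55 and then LdecOR16, and the ranges of these sequences overlapped neither each other nor any lower member. Below them no 2 neighbours in the order were separate. In the antibiotic group the order went on with LdecOR46 (jockey), LdecOR11, LdecOR46 (OR), LdecOR57, LdecOR48 and LdecOR62. In the non-treatment group it went on with LdecOR57, LdecOR46 (jockey), LdecOR62, LdecOR11, LdecOR46 (OR) and LdecOR48. The means of these 6 lay between 0.336 and 1.97 TPM in the antibiotic group and between 1.02 and 4.26 TPM in the non-treatment group.

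**Figure D2:**
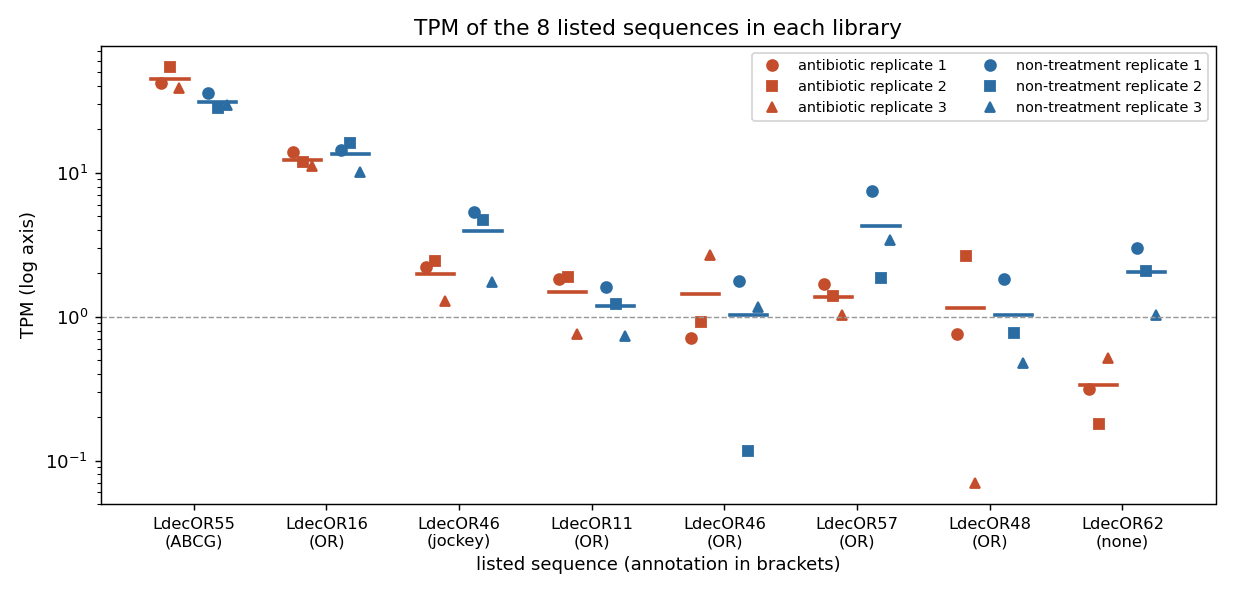
TPM on a log axis (y) of each listed sequence (x, annotation in brackets) in the 3 antibiotic libraries (red, left) and the 3 non-treatment libraries (blue, right), with bars at group means and a dashed line at 1 TPM. The groups do not overlap for LdecOR55, LdecOR57 and LdecOR62, and LdecOR48 spans 0.0696 to 2.63 TPM within the antibiotic group.

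Whether antibiotic feeding went with a different level of each sequence was asked with limma, a linear model with a shared estimate of spread, on log2(TPM + 1) over all 33919 genes with a mean of at least 1 TPM in a group. None of the 8 sequences passed at a Benjamini-Hochberg adjusted p under 0.05 (0 of 8), where 10.1% of all tested genes passed (976 were higher and 2464 lower in antibiotic libraries). At an unadjusted p under 0.05, 3 of 8 passed, LdecOR55 higher and LdecOR57 and LdecOR62 lower, against 24.3% of all tested genes. The p and ratio thresholds of the methods were applied to limma (unadjusted p under 0.05 and a log2 ratio of mean TPM beyond 1). By these, 2 of 8 were lower, against a background of 14.4%, and 0 of 8 were higher, against 5.97%. The study itself used DESeq2 and for its ORs also asked for a mean of at least 5 TPM. LdecOR57 and LdecOR62 did not reach that level in either group. By range, 1 of 8 lay higher in antibiotic libraries without overlap (10.5% of tested genes) and 2 of 8 lower (19.8%), and the other 5 overlapped. On the log2(TPM + 1) scale the differences were positive in 3 and negative in 5, with a median of -0.07 beside -0.09 for all tested genes. Since the choice used the group means, the direction of LdecOR62, whose antibiotic mean did not reach 1 TPM, was fixed by the rule. With it left out, 1 of 7 (LdecOR55) was higher and 1 of 7 (LdecOR57) lower at an unadjusted p under 0.05, and by range 1 of 7 lay higher and 1 of 7 lower without overlap. By the p and ratio thresholds in limma 1 of 7 (LdecOR57) was lower.

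The deposited estimated counts of 5 libraries (2 antibiotic and 3 non-treatment) gave further tests. edgeR called 0 of the 7 sequences that passed its count filter, against 8.85% of tested genes. At an unadjusted p under 0.05 it had 4 of the 7, LdecOR55, LdecOR57, LdecOR62 and LdecOR46 (jockey), against 24.7% of tested genes. Without a count filter edgeR called 2 of 8, LdecOR57 and LdecOR62, both lower, against 3.67% of 185440 genes with any count. Most of those genes lay under 1 TPM, the level that chose the listed sequences, so this share is not a like background. DESeq2 called 1 of 8, LdecOR62, lower, against 7.99% of the 56002 genes to which it gave an adjusted p. The calls of LdecOR57 and LdecOR62 thus depended on the test. With LdecOR62 left out, edgeR without a count filter called 1 of 7 and DESeq2 0 of 7.

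**Figure D3:**
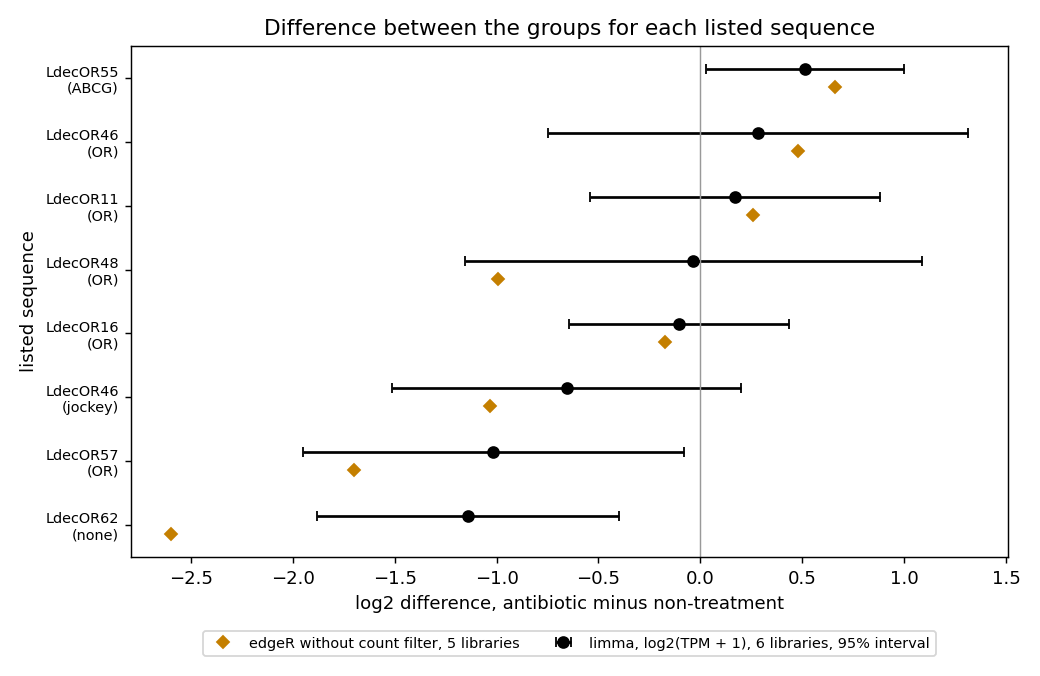
Log2 difference, antibiotic minus non-treatment (x axis), of each listed sequence (y axis): black points with 95% intervals from limma on log2(TPM + 1) in 6 libraries, and diamonds from edgeR on the counts of 5 libraries without a count filter. The interval of LdecOR55 lies above 0, those of LdecOR57 and LdecOR62 lie below 0, and the others span 0. The direction of LdecOR62 was fixed by the choice of sequences.

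Among the sequences with an OR annotation, LdecOR16 (TRINITY_DN58565_c3_g1), whose match is OR9 of C. bowringi, was the most abundant. It had 14.03, 11.8 and 11.2 TPM in the antibiotic libraries, against 14.4, 16.2 and 10.1 TPM in the non-treatment libraries. The lowest and the highest libraries were both of the non-treatment group, and the groups overlapped. Means were 12.3 ± 1.497 TPM in the antibiotic group and 13.5 ± 3.14 TPM in the non-treatment group (SD, n = 3 each). The log2 difference was -0.10 (SE 0.231, 95% interval -0.64 to 0.43, limma adjusted p = 0.822). These libraries therefore leave room for a change of up to 0.64 downwards or 0.43 upwards on the log2(TPM + 1) scale. Between 151 and 200.2 estimated counts stood behind the value in each of the 5 libraries. No other gene of the assembly shared its Trinity cluster, the set of related sequences that the assembler groups under a common number.

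LdecOR57 (TRINITY_DN61178_c0_g3), which matched the putative olfactory receptor OR41, had the lower level in antibiotic libraries. It had 1.69, 1.38 and 1.03 TPM in the antibiotic libraries, against 7.51, 1.84 and 3.42 TPM in the non-treatment libraries. All 3 antibiotic libraries lay below all 3 non-treatment libraries, with a gap between 1.69 TPM in antibiotic replicate 1 and 1.84 TPM in non-treatment replicate 2. The mean was 1.36 ± 0.331 TPM in the antibiotic group and 4.26 ± 2.92 TPM in the non-treatment group, a ratio of 0.321. On the log2(TPM + 1) scale the difference was -1.01 (SE 0.402, 95% interval -1.95 to -0.08, limma p = 0.0371, adjusted p = 0.172), and the exact permutation test gave p = 0.1, the smallest that 3 libraries against 3 can give (two-sided). Without non-treatment replicate 1 the difference was -0.59 (adjusted p = 0.341). The counts were 49 and 40 in antibiotic replicates 2 and 3, against 236, 57 and 121 in the non-treatment libraries. On these counts edgeR gave an adjusted p of 0.185 with its filter and 0.0028 without it, and DESeq2 gave 0.0571.

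A second gene of the same cluster, TRINITY_DN61178_c0_g2, has no annotation and had the opposite order. It had 6.18, 12.5 and 16.8 TPM in the antibiotic libraries, against 4.42, 4.52 and 2.97 TPM in the non-treatment libraries, with no overlap. Its log2(TPM + 1) difference was 1.29 (SE 0.354, limma adjusted p = 0.0628), which does not pass either. Of the summed TPM of both genes, this mate held 78.6%, 90.1% and 94.3% in the antibiotic libraries, against 37.0%, 71.0% and 46.5% in the non-treatment libraries. Whether reads were divided between the related sequences differently in the libraries was not tested. The 2 other sequences under the name LdecOR57 stayed at or below 0.550 TPM in every library.

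LdecOR11 (TRINITY_DN54189_c10_g4), matching OR3, had 1.83, 1.88 and 0.753 TPM in the antibiotic libraries, against 1.61, 1.22 and 0.728 TPM in the non-treatment libraries. Replicate 3 was the lowest library in both groups, and the groups overlapped. A log2(TPM + 1) difference of 0.17 (SE 0.306, 95% interval -0.54 to 0.88, limma adjusted p = 0.78) was smaller than its SE. The counts were 68 and 35 in antibiotic replicates 2 and 3, against 55.4, 33 and 34 in the non-treatment libraries. Both sequences named LdecOR10, which share its cluster and its best match, were at or below 0.578 TPM in every library. Another mate, TRINITY_DN54189_c10_g2, had a log2(TPM + 1) difference of -0.38 (SE 0.376, limma adjusted p = 0.583). Only its non-treatment mean reached 1 TPM (1.08 TPM, against 0.507 TPM in the antibiotic group), so its direction was fixed by the choice.

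LdecOR46 (TRINITY_DN55561_c5_g1), matching OR37, had 0.711, 0.917 and 2.68 TPM in the antibiotic libraries, against 1.78, 0.117 and 1.16 TPM in the non-treatment libraries. The highest library was antibiotic replicate 3 and the lowest non-treatment replicate 2, with broad overlap. The log2(TPM + 1) difference of 0.28 (SE 0.442, 95% interval -0.75 to 1.31, limma adjusted p = 0.744) was smaller than its SE. It turned to -0.06 without antibiotic replicate 3 and to -0.10 without non-treatment replicate 2. Between 3 and 24.0 counts stood behind each value. Its cluster mates without annotation, TRINITY_DN55561_c5_g3 and TRINITY_DN55561_c5_g9, had differences of 0.27 (SE 0.332, limma adjusted p = 0.673) and 0.17 (SE 0.339, limma adjusted p = 0.798), and the other LdecOR46 sequence of the cluster was at or below 0.298 TPM.

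LdecOR48 (TRINITY_DN51649_c4_g1), matching OR16 of C. bowringi, had the fewest counts of the 8. It had 0.763, 2.63 and 0.0696 TPM in the antibiotic libraries, against 1.82, 0.765 and 0.479 TPM in the non-treatment libraries. The antibiotic libraries held both the highest and the lowest value and spanned a 37.8-fold range, so the groups overlapped throughout. The log2(TPM + 1) difference was -0.03 (SE 0.482, 95% interval -1.16 to 1.09, limma adjusted p = 0.976), while the log2 ratio of mean TPM was 0.18, so the sign rested on the scale. On counts, edgeR without a count filter gave -0.99 (adjusted p = 0.744) and DESeq2 -1.02 (adjusted p = 0.933). The counts were 7 and 1 in antibiotic replicates 2 and 3, against 6.01, 9 and 8 in the non-treatment libraries, 31.0 in all. The sequence did not pass the count filter of edgeR.

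The most abundant listed sequence, LdecOR55 (TRINITY_DN57950_c0_g2, the ABCG1 match), had the higher level in antibiotic libraries. It had 41.9, 54.5 and 38.9 TPM in the antibiotic libraries, against 35.6, 28.1 and 29.7 TPM in the non-treatment libraries. All 3 antibiotic libraries lay above all 3 non-treatment libraries. Means were 45.1 ± 8.26 TPM in the antibiotic group and 31.1 ± 3.99 TPM in the non-treatment group, a ratio of 1.45. The log2(TPM + 1) difference was 0.51 (SE 0.209, 95% interval 0.03 to 0.999, limma p = 0.0413, adjusted p = 0.184), and the exact permutation test gave p = 0.1. It ranged over 0.37 to 0.67 under all alternatives that gave a value. It was the best counted of the 8, with 3353 and 2415 counts in antibiotic replicates 2 and 3, against 1729, 1571 and 2002 in the non-treatment libraries, which made up 84.7% of the counts of all 8 sequences. edgeR gave an adjusted p of 0.0941 with its filter and 0.256 without it, and DESeq2 gave 0.306. Of 18 other tested genes annotated as ABC subfamily G, 0 were higher and 0 lower in limma at an adjusted p under 0.05 (10.1% of all tested genes). At an unadjusted p under 0.05, 2 were higher and 1 lower (24.3% of all tested genes). The median log2 difference was 0.23. edgeR with its count filter called 1 of the 18 it tested higher (8.85% of all tested genes). DESeq2 called 0 of the 34 with any count (7.99% of the genes to which it gave an adjusted p).

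The same Trinity cluster held LdecOR54 (TRINITY_DN57950_c0_g1), which matched odorant receptor OR1 of C. bowringi and is not among the 8. It had 0.226, 2.79 and 1.62 TPM in the antibiotic libraries, against 20.5, 6.87 and 2.40 TPM in the non-treatment libraries. Antibiotic replicate 2 lay above non-treatment replicate 3, so the groups overlapped, and the log2(TPM + 1) difference was -1.85 (SE 0.687, limma adjusted p = 0.147). The assembler thus put an ABCG match and an OR match in the same cluster, with opposite signs of difference. LdecOR54 made up 0.537%, 4.87% and 3.99% of the summed TPM of both in the antibiotic libraries, against 36.5%, 19.7% and 7.48% in the non-treatment libraries. The remaining mate at 1 TPM or more, TRINITY_DN57950_c0_g4, had a difference of 0.23 (SE 0.564, limma adjusted p = 0.846). Only its antibiotic mean reached 1 TPM (1.36 TPM, against 0.691 TPM in the non-treatment group), so its direction was fixed by the choice.

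**Figure D4:**
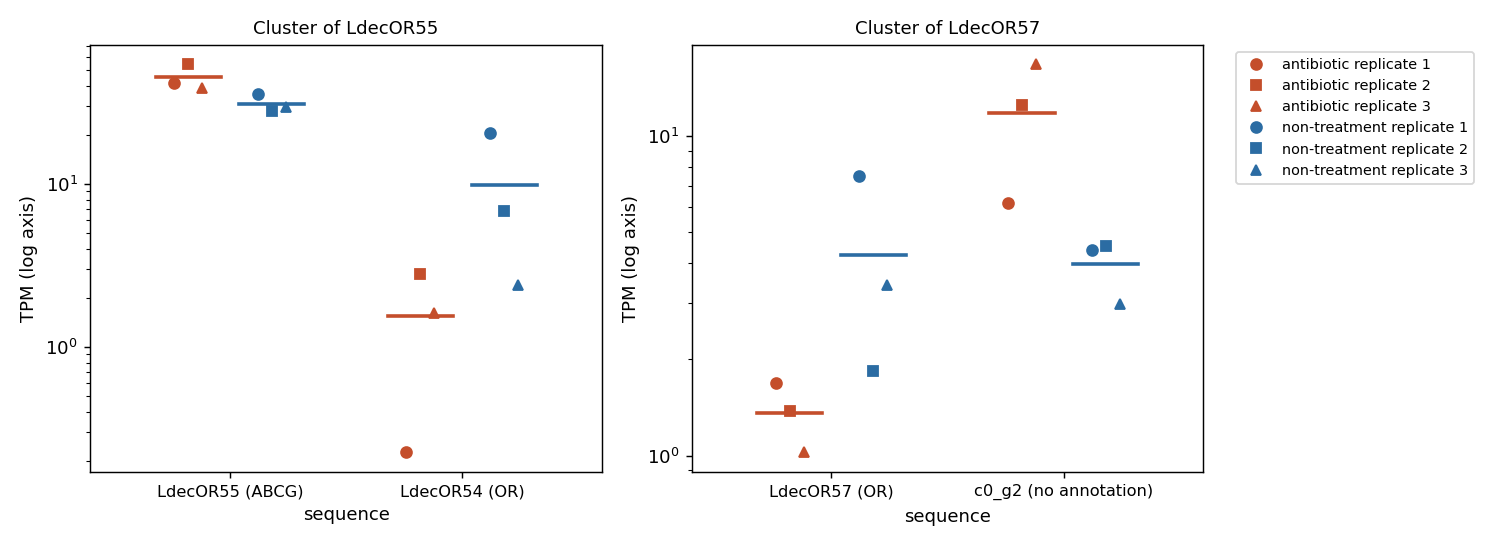
TPM on a log axis (y) of LdecOR55 and LdecOR54 (left panel) and of LdecOR57 and its cluster mate without annotation (right panel) in the 3 antibiotic libraries (red) and the 3 non-treatment libraries (blue), with bars at group means. Mean TPM of LdecOR55 was 45.1 in the antibiotic and 31.1 in the non-treatment group, that of LdecOR54 1.54 in the antibiotic and 9.91 in the non-treatment group, that of LdecOR57 1.36 in the antibiotic and 4.26 in the non-treatment group, and that of its mate 11.8 in the antibiotic and 3.97 in the non-treatment group.

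The jockey match, LdecOR46 (TRINITY_DN65492_c1_g2), had 2.21, 2.42 and 1.29 TPM in the antibiotic libraries, against 5.33, 4.70 and 1.73 TPM in the non-treatment libraries. Non-treatment replicate 3 lay within the range of the antibiotic libraries, so the groups overlapped. The log2(TPM + 1) difference was -0.66 (SE 0.367, 95% interval -1.51 to 0.20, limma adjusted p = 0.329), and means were 1.97 ± 0.599 TPM in the antibiotic group and 3.92 ± 1.92 TPM in the non-treatment group. In counts, the values were 33.3 and 18 in antibiotic replicates 2 and 3, against 56, 44 and 50 in the non-treatment libraries, and these did not overlap (edgeR log2 difference -1.05, adjusted p = 0.154). Of 562 other tested genes annotated as jockey elements, 5 were higher and 18 lower at an adjusted p under 0.05 in limma, with a median log2 difference of -0.19. Over all 33919 tested genes 976 were higher and 2464 lower, with a median of -0.09. A cluster mate without annotation, TRINITY_DN65492_c1_g1, had the same order, with 0.601, 0.310 and 0 TPM in the antibiotic libraries, against 0.684, 2.29 and 3.31 TPM in the non-treatment libraries. Its groups did not overlap, and its log2(TPM + 1) difference was -1.17 (SE 0.399, limma adjusted p = 0.119). This mate was named because its non-treatment mean of 2.09 TPM reached 1 TPM, while its antibiotic mean was 0.304 TPM. Its direction was thus fixed by the choice and cannot count as support. A repeated element has many related copies, so its reads could be divided among them in counting.

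LdecOR62 (TRINITY_DN57001_c0_g2), which has no annotation, was lower in antibiotic libraries by range. This direction was fixed by the choice, since only its non-treatment mean reached 1 TPM. The p-values of this paragraph therefore cannot count as support for it. It had 0.312, 0.179 and 0.516 TPM in the antibiotic libraries, against 3.01, 2.08 and 1.03 TPM in the non-treatment libraries. All 3 antibiotic libraries lay below all 3 non-treatment libraries. Means were 0.336 ± 0.170 TPM in the antibiotic group and 2.04 ± 0.994 TPM in the non-treatment group, a ratio of 0.164. In limma the log2(TPM + 1) difference was -1.14 (SE 0.318, 95% interval -1.88 to -0.40, p = 0.00791, adjusted p = 0.0662), and the exact permutation test gave p = 0.1. The log2 ratio of means was -2.60, and the added 1 TPM makes the scaled difference smaller at low values. The counts were 5 and 8 in antibiotic replicates 2 and 3, against 58, 42 and 15 in the non-treatment libraries. edgeR gave an adjusted p of 0.107 with its filter and 0.00126 without it, and DESeq2 gave 0.0299. Without non-treatment replicate 3, the library with the lowest value of its group, limma gave a difference of -1.40 and an adjusted p of 0.0281.

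The estimated counts that stood behind 1 TPM were not steady for all sequences. For a fixed transcript length this quantity should change only with depth and composition, and among 28769 tested genes with counts in all 5 libraries the highest library was at a median of 1.19 times the lowest. LdecOR57, LdecOR16 and LdecOR55 had ratios of 1.26, 1.31 and 1.39, and LdecOR11 and LdecOR62 had 1.73 and 1.92. Both sequences named LdecOR46 exceeded a ratio of 3, with 3.02 for the OR match and 3.09 for the jockey match, as did 5.18% of those genes. LdecOR48 reached 6.27, with 2.66 and 14.4 counts per TPM in antibiotic replicates 2 and 3, against 3.31, 11.8 and 16.7 in the non-treatment libraries, and only 0.914% of those genes reached 6. For LdecOR48 the high TPM of antibiotic replicate 2 and of non-treatment replicate 1 therefore rested on fewer counts per TPM than elsewhere, and its 7 and 6.01 counts in these libraries were no higher than the 9 and 8 of non-treatment replicates 2 and 3.

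**Figure D5:**
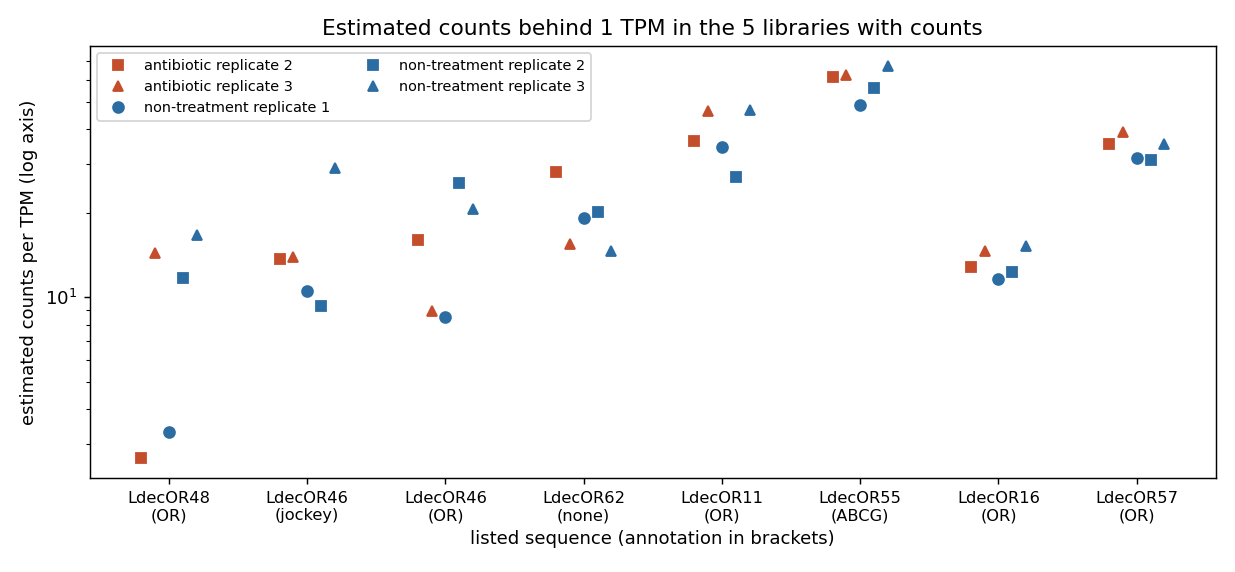
Estimated counts per TPM on a log axis (y) of each listed sequence (x, annotation in brackets) in the 2 antibiotic libraries (red) and 3 non-treatment libraries (blue) with counts, ordered by the ratio of the highest to the lowest library. LdecOR48 on the left spans 2.66 to 16.7 and LdecOR57 on the right 30.9 to 39.0.

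Spread within a group differed between the sequences. The coefficient of variation was lowest for LdecOR16 in the antibiotic group (12.1%) and for LdecOR55 in the non-treatment group (12.8%). It was highest for LdecOR48 in the antibiotic group (115%) and for LdecOR46 (OR) in the non-treatment group (82.5%). Antibiotic replicate 2 and non-treatment replicate 1 each held the highest value of 3 of the 8 sequences. Antibiotic replicate 3 held the lowest value of 3.

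The genes most like each sequence were sought by the root mean square difference of log2(TPM + 1), each gene centred on its own mean over the 6 libraries. The closest to LdecOR55 were a dnaJ homolog dnj-5 match (TRINITY_DN59309_c3_g1, 0.067) and a ubiquitin carboxyl-terminal hydrolase 2 match (TRINITY_DN62986_c2_g2, 0.085), and 355 of 3677 genes of like level lay within 0.25. The closest to LdecOR16 were a prune homolog (TRINITY_DN65648_c2_g1, 0.058) and a BRCA1-associated protein match (TRINITY_DN56935_c4_g1, 0.075), with 544 of 5685 within 0.25. Such patterns were thus common among genes of that level. LdecOR62 was closest to an AGAP001140-PA-like match (TRINITY_DN60124_c2_g2, 0.098) and a centrosomal protein match (TRINITY_DN58233_c2_g1, 0.109), with 103 of 4651 within 0.25. LdecOR57 had fewer genes near it, 4 of 6626, with a zinc finger MYM-type protein 1 match (TRINITY_DN50646_c0_g2, 0.174) and a jockey-like match (TRINITY_DN52423_c7_g5, 0.192) nearest. LdecOR46 (OR) had 1 of 4738 and LdecOR48 5 of 4442. For LdecOR46 (OR) the nearest were a PiggyBac-derived protein 2 match (TRINITY_DN58333_c3_g1, 0.221) and a jockey-like match (TRINITY_DN65587_c6_g1, 0.252), and for LdecOR48 a C9orf30-like match (TRINITY_DN52716_c2_g1, 0.067) and a transposon BS polymerase match (TRINITY_DN50303_c0_g4, 0.224). LdecOR11 was nearest to 2 jockey matches (TRINITY_DN52538_c3_g4, 0.085, and TRINITY_DN56756_c2_g1, 0.114), and the listed jockey sequence to a zinc finger MYM-type protein 1-like match and a ferric-chelate reductase 1 match, both at 0.120 (TRINITY_DN59239_c1_g1 and TRINITY_DN57085_c3_g2).

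Other chemosensory families give the setting. In limma 10.1% of all 33919 tested genes passed (976 higher and 2464 lower), and 24.3% had an unadjusted p under 0.05. With edgeR 8.85% passed with its count filter and 3.67% without it, and with DESeq2 7.99%. Of the OR table sequences that are not listed, 9 were tested, of which 1 was higher and 1 lower at an adjusted p under 0.05 in limma. The higher was LdecOR21 (TRINITY_DN65117_c1_g1), with 9.18, 6.09 and 6.12 TPM in the antibiotic libraries, against 2.44, 2.13 and 1.65 TPM in the non-treatment libraries (log2 difference 1.39, SE 0.244, adjusted p = 0.0118). The lower was LdecOR17 (TRINITY_DN65177_c1_g3), with 0.221, 0.218 and 0.224 TPM in the antibiotic libraries, against 3.86, 3.96 and 6.25 TPM in the non-treatment libraries. Its log2 difference was -2.20 (SE 0.255, limma adjusted p = 0.00228). LdecOR17 entered the test through the non-treatment group only, so the filter fixed its direction, and the p-value cannot count as support for it. Of 36 odorant-binding proteins, which carry odorants to the receptors and made up most of the antenna list above, 8 were higher and 0 lower. Their median log2 difference was 0.57. Of 9 chemosensory proteins 2 were higher, matches of chemosensory proteins of C. bowringi (TRINITY_DN58624_c0_g1 and TRINITY_DN59184_c1_g4), and 0 lower. Among the receptors of other families, 0 of 2 ionotropic receptors passed and 1 of 7 gustatory receptors was lower (TRINITY_DN50714_c5_g2), and 0 of 3 sensory neuron membrane proteins passed. That gustatory receptor had at most 0.728 TPM in antibiotic libraries and at least 2.76 TPM in non-treatment libraries. It too entered the test through the non-treatment group only, so the filter fixed its direction. At an unadjusted p under 0.05, 1 ionotropic receptor was higher and 1 lower, and 1 sensory neuron membrane protein was higher. edgeR with its count filter called 0 of 2 ionotropic receptors and 0 of 4 sensory neuron membrane proteins. DESeq2 called 1 of the 10 ionotropic receptors with any count lower and 0 of the 5 sensory neuron membrane proteins with any count. Without its count filter edgeR called 1 of these 10 ionotropic receptors higher, 1 lower and 1 of these 5 sensory neuron membrane proteins higher.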

How the data were processed

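RNA labelled as from heads of adult CPBs was measured in 6 libraries, grouped by the treatment label. The authors deposited a TPM value for 236706 genes in each library, scaled to a sum of 1000000. Estimated counts deposited for 5 libraries were also used, and 76.5% to 77.3% of those above 0 were exactly whole, with no tolerance. The count column in the file of antibiotic replicate 1 is that of replicate 2, and another file repeats a column too (2 copies in all), so no counts of antibiotic replicate 1 entered a test. Counts were rounded before testing. The methods name featureCounts and a reference genome, while the submitters' processing notes name FastQC, Salmon and DESeq2 and the mouse build mm10, and gene names are of Trinity type. How reads were assigned is therefore uncertain, and related sequences may share reads. No coordinates or sequences were used.

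The members and all lists were chosen with earlier results of these data known. Genes with a mean of at least 1 TPM in a group (33919) were fitted with limma 3.58.1 (mean-variance trend, no covariate) on log2(TPM + 1) in R 4.3.3, with Benjamini-Hochberg adjustment over all of them. Adjusted p-values under 0.05 were calls. Alternatives were edgeR 4.0.16 quasi-likelihood and DESeq2 1.42.0 on counts, other pseudocounts (0.1 and 5), filters, scaling, a replicate block and each library left out. Exact permutation tests were two-sided. The tests were run on simulated data with 200 genes changed by a log2 of 2, all with a mean of at least 5 TPM. That run does not show how well changes are found at the lower levels of most listed sequences. Python 3.11.15, NumPy 2.4.6, pandas 2.3.3, SciPy 1.17.1 and matplotlib 3.10.9 were also used.

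The genes named are the 8, LdecOrco, their Trinity cluster mates in the OR table or at 1 TPM or more, the 2 genes most like each (with a named protein and a mean within 4-fold), and up to 2 genes of each annotation or marker list with the highest mean TPM. The other genes named in the last paragraph of results were chosen after their values were seen. Lists were made by annotation keyword.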

Additional observations from a re-analysis of the deposited data

How the results depend on the processing

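Over the log2 differences of the 8 sequences under the alternatives, 4 values newly passed the threshold and 7 turned direction, and the rest kept both. Of the 4, 3 were of LdecOR62, whose direction was fixed by the choice, and 1 of LdecOR57. The number of listed sequences called was 0 in limma (10.1% of all tested genes). It was 2 with edgeR without a count filter (LdecOR57 and LdecOR62, against 3.67% of tested genes) and 1 with DESeq2 (LdecOR62, against 7.99%). It was 2 in limma with the p and ratio thresholds of the methods, both lower (14.4% of tested genes were lower by these). With each library left out it was 0 to 1, the 1 being LdecOR62 without non-treatment replicate 3, where 3867 of 35250 genes passed. The directions that turned were those of small differences: LdecOR48 became 0.0167 with a pseudocount of 5. With each library left out, LdecOR48 ranged from -0.50 to 0.38, LdecOR46 (TRINITY_DN55561_c5_g1) from -0.10 to 0.56 and LdecOR16 from -0.29 to 0.0277. The causes were not tested. Of all tested genes, 3440 of 33919 passed (10.1%). With no filter on low values 2138 of 198173 passed, and with edgeR without a count filter 6807 of 185440 (3.67%). These numbers are of unlike sets of genes. In limma with the p and ratio thresholds of the methods the number was 6908 of 33919. With each library left out the number was 1765 to 3867 (1765, 1941 and 2031 without antibiotic replicates 1, 2 and 3 and 2029 without non-treatment replicate 2), where fewer samples were fitted. The genes tested were then 34404 to 35250. With the OR annotated sequences alone, the share of the OR table TPM was 17.7% in the antibiotic group and 18.7% in the non-treatment group, against 64.4% in the antibiotic group and 52.3% in the non-treatment group for all 8. With matches to other proteins left out of both the listed sequences and the table, an alternative chosen after seeing the data, it was 38.1% in the antibiotic group and 33.3% in the non-treatment group. Leaving out LdecOR62, also chosen after seeing the data, left the number called in limma at 0. Whether the replicate numbers pair the libraries was not settled. Correlations of deviations were 0.13, -0.09 and 0.10 for libraries of the same number and -0.17 to 0.08 for the others. The fit with a replicate block called 2615 genes and 0 of the 8. LdecOR48 became -0.99 with edgeR without a count filter and -1.02 with DESeq2, and had the fewest counts, 31.0 over 5 libraries, and TPM itself carries no depth.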
